A study of Mus musculus with 3 samples.

Results

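The baseline transcriptome of E14 mouse embryonic stem cells (ESCs) grown in leukemia inhibitory factor (LIF) was described from the library labelled WT, 1 of the 3 RNA-seq libraries of the series. Levels are FPKM, fragments per kilobase of transcript scaled to the mapped fragments of the library, so levels of different genes can be set side by side per length. Of 23953 genes in the deposited table, 1184 small RNA genes with symbols starting Mir or Snor were set aside, which left 22769 genes to be ranked by FPKM. No treated level entered the ranking. E14 is an established male ESC line. The cells grew in GMEM with 15% FBS and LIF at 1000 U, and total RNA was made into stranded libraries.

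The labels give all 3 libraries the same pair of constructs, one doxycycline inducible and one tamoxifen inducible: a transgenic mouse Oct4 that doxycycline switches on, and a tamoxifen-activated Cre. The study speaks of wild-type (+/+) cells beside its lines with a loxP-flanked *Oct4* distal enhancer (DE), while the treatment text of every library, WT included, names loxP-flanked lines. Whether the WT library came from cells without loxP sites is therefore not settled here. The other libraries, labelled Tam and DoxTam, came from clones with the loxP-flanked *Oct4* DE treated for 48 hours with 4-OH tamoxifen, without or with doxycycline. *Pou5f1*, the gene that encodes Oct4, was listed at 664 FPKM in the library labelled WT, 529 FPKM in Tam and 458 FPKM in DoxTam. The series thus holds no library with a low *Pou5f1* level, and the names used here are those of the labels. There is 1 deposited column per condition, so no value has a replicate error and no test was made. Where an interval is given it is a 95% Poisson interval on an estimated fragment number, and it covers counting error only. The estimate uses the median length of a gene's coding transcripts. An interval, that of *Pou5f1* included, can therefore be too wide or too narrow where isoforms differ in length.

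Mouse ESCs are derived from the inner cell mass of the blastocyst and keep the ability to form every lineage of the embryo. In culture with LIF, which acts through its receptor and STAT3, they self-renew under a network of transcription factors around Oct4, Sox2 and Nanog. Naive factors of the KLF and nuclear receptor families stabilize this state, and signalling by the cells' own FGF4 through ERK prepares them to leave it.

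In the WT library 11964 of 22769 genes, 52.5%, were at 1 FPKM or more, the level called present here. At 10 FPKM or more there were 6236 genes, 27.4% of those ranked, and at 100 FPKM or more there were 641 genes, 2.82%. A further 4273 genes, 18.8%, were listed at 0. The median over all ranked genes was 1.37 FPKM and the median over the genes present was 10.7 FPKM. These percentages are the background for every count given for a gene list or family. They apply to 1 library at 1 depth, and a transcript of 2000 bases at 1 FPKM rests on about 25.9 fragments, while 3 fragments on it give 0.116 FPKM.

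Depth is not listed in the deposited table and was read from the lowest values. Of 321 short olfactory receptor genes above 0 in the WT library, 191 genes (59.5%) lay on 3 discrete steps of FPKM times length. Each step is the value of 1 fragment, in a library of 16180000, 15230000 or 11950000 fragments. Sums of up to 3 fragments accounted for 296 of the 321 genes, and the fit needed 207 bases to be subtracted from each length. A mean over 3 separately scaled read sets gives such a pattern, and its total would then be 14450000 fragments for WT. The fit found 2 steps for Tam and 3 for DoxTam, with totals of 7278000 and 8302000 fragments on the same reading. Whether those sets were lanes, repeat runs or separate cultures was not given in the sources used here.

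The 3 core factors marked the cells as the label says. *Pou5f1*, the POU factor of the core network, was at 664 FPKM (interval 640 to 689) and ranked 70 of 22769 genes. *Sox2*, its HMG-box partner, was at 289 FPKM (283 to 295) and ranked 166, and *Nanog*, the homeobox factor of the same network, was at 186 FPKM (181 to 192) and ranked 273. All 3 were thus among the 641 genes at 100 FPKM or more. In mm9 the table places *Pou5f1* at chr17:35642977-35647722, *Sox2* at chr3:34459303-34576915 and *Nanog* at chr6:122657507-122664651. The *Sox2* interval is far longer than the single exon of *Sox2* and takes in the overlapping transcript *Sox2ot*, so the level of *Sox2* may include fragments of that transcript.

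The promoters of the 3 genes are shown because the core factors are known to bind octamer and composite octamer-Sox elements. They are the 250 bases before the annotated start from RefSeq on GRCm38.p6, plus strand, for *Pou5f1* at chr17:35505782-35506031, *Sox2* at chr3:34649745-34649994 and *Nanog* at chr6:122707239-122707488. Capitals mark TTTGCAT, the core of the octamer, and the same letters followed after 1 base by ACAATG, a Sox element, read on either strand. Both patterns were chosen after the sequences had been seen, and the second contains the first.
Pou5f1: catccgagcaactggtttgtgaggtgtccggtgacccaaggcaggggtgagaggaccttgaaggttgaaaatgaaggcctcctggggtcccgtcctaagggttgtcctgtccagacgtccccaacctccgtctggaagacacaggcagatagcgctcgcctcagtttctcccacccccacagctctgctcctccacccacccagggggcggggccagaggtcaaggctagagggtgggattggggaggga
Sox2: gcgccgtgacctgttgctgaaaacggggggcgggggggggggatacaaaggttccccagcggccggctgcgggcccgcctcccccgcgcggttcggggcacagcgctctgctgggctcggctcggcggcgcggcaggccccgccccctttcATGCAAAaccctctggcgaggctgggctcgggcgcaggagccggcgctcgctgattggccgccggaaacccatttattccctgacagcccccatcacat
Nanog: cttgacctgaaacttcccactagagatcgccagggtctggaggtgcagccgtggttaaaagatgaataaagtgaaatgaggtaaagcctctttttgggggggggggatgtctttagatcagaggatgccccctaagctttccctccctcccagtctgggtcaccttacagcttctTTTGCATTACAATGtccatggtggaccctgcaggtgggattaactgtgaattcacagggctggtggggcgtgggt

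TTTGCAT occurred in 696 of the 16690 promoters that could be matched to a ranked gene (4.17%), counted over 300 bases on both strands. Among transcription factor genes at 10 FPKM or more it occurred in 17 promoters (12.5%), and among transcription factor genes under 1 FPKM in 7 of 187 (3.74%). *Sox2* and *Zfp42* were among the 17. The joined octamer and Sox letters occurred in 1 of the 16690 promoters (0.00599%), that of *Nanog*. In the printed window the *Sox2* promoter held 27 CpG dinucleotides, that of *Pou5f1* 8 and that of *Nanog* 3, so the 3 core genes did not share a CpG-rich promoter. A match is a description of letters in a window and not a binding site.

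The highest levels belonged to structural RNAs and to the translation machinery. *Rmrp*, the RNA of RNase MRP, was at 41919.5 FPKM, and *Rpph1*, the RNA of RNase P, at 18785 FPKM. *Rn45s*, the ribosomal RNA precursor, followed at 11371 FPKM, and *Rnu12*, an RNA of the minor spliceosome, at 4288 FPKM. These first 4 genes are not protein coding. Among all ranked genes, 20 structural RNA genes held 18.4% of the summed FPKM, and 7 of them were among the 25 highest genes. Apart from *Rn45s*, which is long, such RNAs are short, and with 207 bases subtracted little length is left to divide by, so their FPKM is uncertain.

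Of protein-coding genes, *Rplp2* and *Rplp1*, acidic proteins of the large ribosomal subunit stalk, were at 3612 and 2674 FPKM. *Eef1a1*, the elongation factor that brings aminoacyl-tRNA to the ribosome, was at 3056 FPKM, and *Hsp90ab1*, the constitutive cytosolic HSP90 chaperone, at 1682 FPKM. The 25 highest also held *Rnu11*, *Rprl2* and *Rprl3*, the ribosomal protein genes *Rpl4*, *Rps20*, *Rps24*, *Rps15*, *Rps12*, *Rps21*, *Rpl8*, *Rpl38* and *Rpl12*, the histone genes *Hist1h4d*, *Hist1h1d* and *Hist1h1a*, and *Lars2*. Cytoplasmic ribosomal protein genes took 47 of the 100 highest places, and 79 of their 81 members were present, together 12.5% of the summed FPKM. Many of these genes have near-identical copies elsewhere in the genome, so single values within this group are uncertain.

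Histone genes of the replication-dependent clusters, whose transcripts usually lack a poly(A) tail, were also high. Of 67 such genes 57 were present and 39 were at 100 FPKM or more, which compares with 2.82% of all genes. *Hist1h4d* was highest at 2185 FPKM, *Hist1h1d* followed at 1611 FPKM and *Hist1h1a* at 1556 FPKM, and 8 of the genes were listed at 0. They held 4.15% of the summed FPKM, and 11 were among the 100 highest genes. Most of the genes at 0 are listed under a joint name with a copy, or are that copy, so their values are uncertain.

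*Lars2*, which encodes the mitochondrial leucyl-tRNA synthetase, stood apart from other enzymes of its kind. It was at 2461 FPKM, while the mitochondrial synthetase genes *Tars2* and *Iars2* were at 42.1 and 20.9 FPKM and the cytosolic *Lars* was at 101 FPKM. The comparison genes were chosen after the values had been seen. Why 1 of these genes was so high was not tested.

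A small number of genes held much of the signal. The highest gene held 8.93% of the summed FPKM, the 10 highest 20.02%, the 100 highest 38.2% and the 1000 highest 65.4%. It took 309 genes to reach 50%. The 1184 small RNA genes set aside held 55.7% of the FPKM summed over the whole table, which is why they were left out of the ranks.

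**Figure D1:**
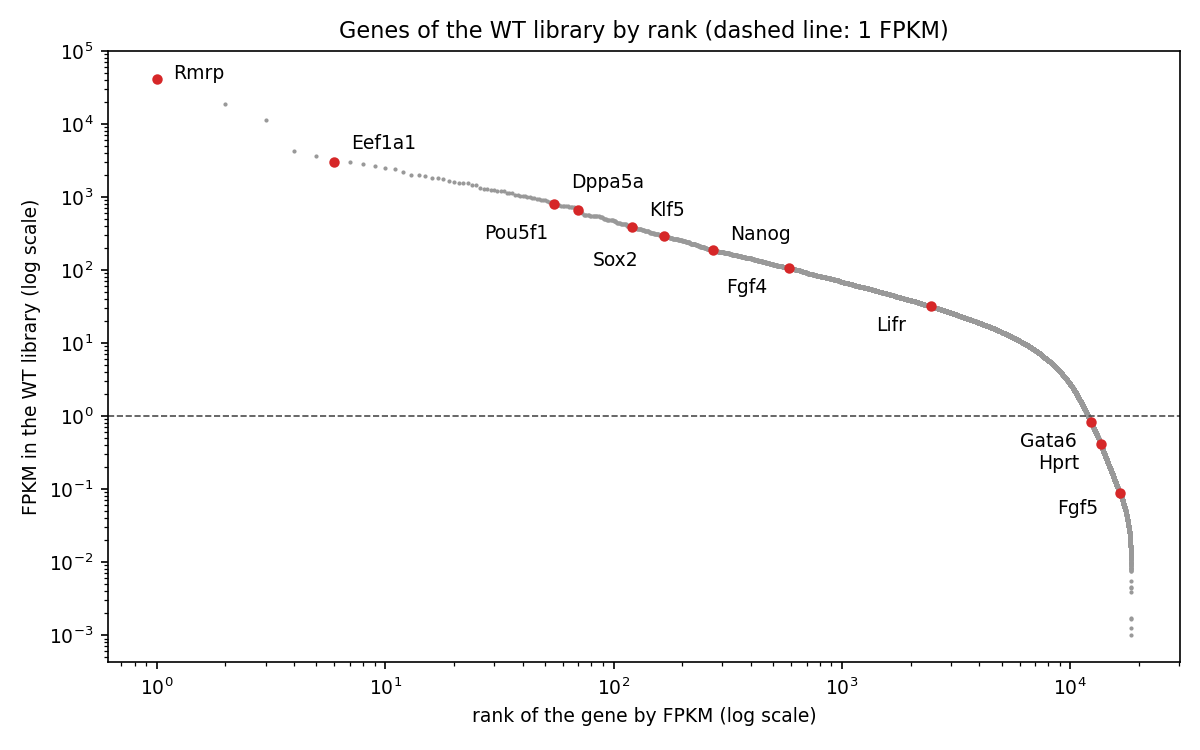
FPKM of each gene above 0.001 FPKM in the WT library against its rank, both axes on a log scale, with named genes in red. *Rmrp* stands at 41919.5 FPKM, the core factors *Pou5f1*, *Sox2* and *Nanog* between 664 and 186 FPKM, and the curve falls below the dashed line of 1 FPKM after rank 11964.

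Transcription factor genes were present in part, and mostly at modest levels. Over 27 families with 741 members, 482 genes (65%) were at 1 FPKM or more against 52.5% of all genes, 12 genes were at 100 FPKM or more and 37 genes were listed at 0. The Zfp family, zinc finger genes, made up 296 of the 482 with 354 members, and the other 26 families had 186 of 387 members present (48.1%), under the background. The median member was at 3.35 FPKM. *Pou5f1* was the highest of the 741, and *Klf5*, a Krüppel-like factor of the naive network, was next at 395 FPKM. When the pluripotency lists were added to the families, giving 770 genes, *Pou5f1* ranked 2 after *Dppa5a*, an RNA-binding protein of ESCs at 793 FPKM.

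Below *Pou5f1* and *Klf5* came *Zfp57*, which protects methylation at imprinted loci, at 298 FPKM (287 to 310) and *Sox2* at 289 FPKM (283 to 295). The order of these 2 genes is not fixed by the counting error, since their intervals overlap. *Esrrb*, an orphan nuclear receptor of the naive network, was at 186 FPKM (182 to 190), *Klf4* at 175 FPKM (170 to 180) and *Id1*, an inhibitor of helix-loop-helix factors induced by BMP, at 167 FPKM (160 to 175). *Nanog*, which belongs to none of these families, lay within the interval of *Esrrb*. *Atf4*, a factor of the amino acid response, was at 144 FPKM, apart from its neighbours on both sides.

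*Sall4*, a zinc finger factor that binds the core network, was at 113 FPKM, *Zfp106* at 112 FPKM and *Zfp42* (Rex1), a classical ESC marker, at 110.0 FPKM, with overlapping intervals. *Klf2*, another naive Krüppel-like factor, was at 104 FPKM. The retinoic acid receptor *Rarg* was at 95.1 FPKM, *Klf9* at 89.9 FPKM and *Zfp207*, a spindle and splicing factor by function, at 88.9 FPKM. The last of the 20 were *Smad7*, *Tbx3*, *Etv5*, *E2f4* and *Erf*, from 86.0 down to 74.4 FPKM. *Smad7* is an inhibitor of TGF-beta and BMP signalling and *Etv5* and *Erf* are ETS factors linked to ERK, so genes that report on signalling stood beside factors of the naive network.

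**Figure D2:**
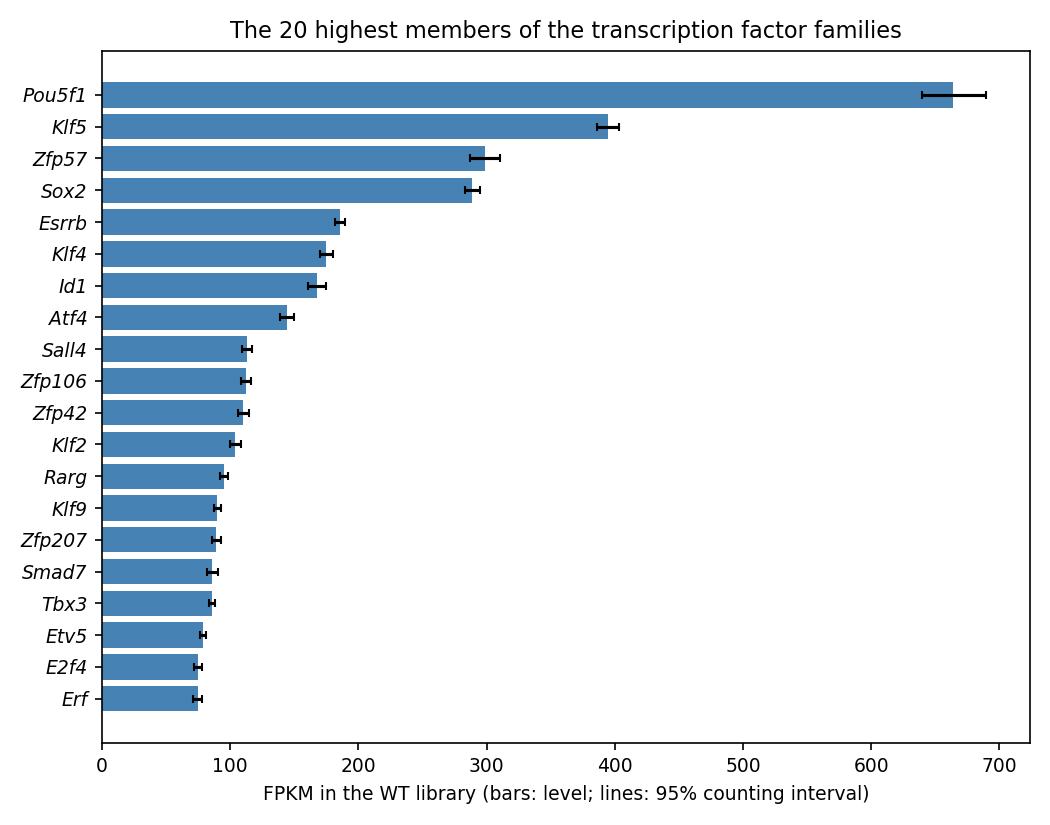
FPKM in the WT library of the 20 highest members of the transcription factor families, with bars for the level and lines for the 95% counting interval. *Pou5f1* at 664 FPKM stands clear of *Klf5* at 395 FPKM, and the bars from *Sall4* to *Klf2* lie between 113 and 104 FPKM.

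All 13 measured naive factors were at 10 FPKM or more, against 27.4% of all genes, and 7 of them were at 100 FPKM or more. *Klf5*, *Esrrb* and *Klf4* led with *Mybl2*, a cell cycle factor of ESCs at 185 FPKM. *Tfcp2l1*, a target of LIF and STAT3, was at 90.7 FPKM and *Tbx3*, a T-box factor of the same network, at 85.8 FPKM. The orphan receptors *Nr0b1* and *Nr5a2* were at 35.7 and 33.2 FPKM and the homeobox gene *Gbx2* at 33.0 FPKM. *Prdm14*, which represses FGF signalling and de novo methylation, was lowest at 10.1 FPKM. Levels within this list thus spanned from 395 to 10.1 FPKM.

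Of 26 other genes tied to pluripotency 25 were present and 11 were at 100 FPKM or more. *Dppa5a* was followed by *Tdgf1*, the co-receptor of Nodal, at 429 FPKM, *Jarid2*, a PRC2 cofactor, at 215 FPKM and *L1td1*, an RNA-binding protein derived from a retrotransposon, at 199 FPKM. *Tdh*, the threonine dehydrogenase on which mouse ESCs are known to depend, was at 182 FPKM and *Utf1* at 181 FPKM. The low end held *Dppa3* (Stella) at 1.09 FPKM and *Fut4*, a fucosyltransferase gene, at 0.141 FPKM. *Fut4* was the 1 gene of this list under 1 FPKM.

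The primed list, genes of the postimplantation epiblast, was divided. Of 15 genes 8 were present (53.3%, close to the background of 52.5%) and 3 were at 10 FPKM or more: *Nodal*, the TGF-beta family ligand of the epiblast, at 49.6 FPKM, *Foxd3* at 25.6 FPKM and *Dnmt3b*, a de novo methyltransferase, at 20.7 FPKM. *Otx2*, a homeobox factor of the primed state, was at 7.35 FPKM and *Pou3f1* (Oct6) at 1.20 FPKM. *Fgf5*, the standard marker of the primed epiblast, was at 0.0881 FPKM, *Lef1* at 0.504 FPKM, *Dkk1* at 0.0825 FPKM and *Cer1* at 0.0428 FPKM. *Fgf5*, *Dkk1* and *Cer1* lay under the 0.116 FPKM that 3 fragments give on a transcript of 2000 bases.

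Of the 18 genes of the 2-cell-like state 8 were present, and none reached 10 FPKM. *Zscan4d*, of the telomere-linked Zscan4 cluster, was highest at 6.30 FPKM and *Zscan4c* followed at 4.98 FPKM. *Dux*, the factor that switches this programme on, was at 0.547 FPKM. The Zscan4 genes are near-identical copies, so their separate values are uncertain. A bulk level cannot tell a few cells with many transcripts from many cells with few.

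The LIF pathway was present almost throughout, with 20 of 22 genes at 1 FPKM or more. The receptor subunits *Il6st* (gp130) and *Lifr* were at 36.2 and 31.8 FPKM and the transducer *Stat3* at 29.1 FPKM. *Jak1*, the kinase bound to gp130, was at 16.4 FPKM (15.1 to 17.8) and its paralog *Jak3* at 15.7 FPKM (14.6 to 16.8), with overlapping intervals. The further paralogs *Tyk2* and *Jak2* were at 11.5 and 1.95 FPKM. The adaptor *Gab1* at 76.9 FPKM and the feedback inhibitor *Socs3* at 75.4 FPKM were the highest of the list. The ligand *Lif* itself was at 1.14 FPKM, and *Il6* and the oncostatin M receptor gene *Osmr* were at 0.145 and 0.0952 FPKM. The receptor genes *Il6ra* and *Il11ra1* were at 2.46 and 1.98 FPKM. *Il6st*, *Lifr*, *Jak1*, *Stat3* and *Socs3* were thus well above the gene of the ligand that the medium supplied, and *Osmr* was below it. Among the 7 *Stat* genes *Stat3* held 46.4% of the family's summed FPKM.

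The FGF and ERK list held 28 of 33 genes at 1 FPKM or more. *Fgf4*, the ligand that ESCs make themselves, was at 106 FPKM (103 to 110), the highest of 200 ligand and receptor genes and 86.7% of the FPKM of the Fgf family. *Fgf17* was next in the family at 4.88 FPKM. Of the receptors, *Fgfr1* was at 11.5 FPKM, *Fgfr4* at 2.64 FPKM, *Fgfr3* at 0.598 FPKM and *Fgfr2* at 0.513 FPKM, so 1 receptor gene held 75.4% of the receptor family. The ERK1 gene *Mapk3* was at 30.7 FPKM and *Map2k1*, the MEK1 gene, at 72.1 FPKM. Feedback inhibitors and targets of ERK were among the highest genes of the list, with *Spry2* at 116 FPKM, *Spry4* at 103 FPKM, *Etv5* at 78.4 FPKM and *Dusp6* at 55.3 FPKM. *Eras*, the ESC-specific Ras, was at 30.7 FPKM (27.7 to 34.0) and *Nras* at 28.0 FPKM (26.6 to 29.5), with overlapping intervals, and *Hras* was at 20.1 FPKM.

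In the Wnt list 21 of 26 genes were present, but the ligands were low. *Ctnnb1*, which encodes beta-catenin, was at 177 FPKM, and the kinase genes *Gsk3a* and *Gsk3b* were at 27.2 and 18.3 FPKM. Of 19 *Wnt* genes 2 were present, *Wnt6* at 9.20 FPKM and *Wnt10a* at 1.00 FPKM. The receptor *Fzd5* was at 46.8 FPKM and *Fzd7* at 20.7 FPKM, and the co-receptors *Lrp5* and *Lrp6* were at 21.2 and 19.4 FPKM. Of the nuclear factors, *Tcf7l1*, the repressor of ESC target genes, was at 15.1 FPKM and *Tcf7* at 14.4 FPKM, against 0.504 FPKM for *Lef1*. Receptors and transducers were thus present with 17 of the 19 ligand genes under 1 FPKM.

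The BMP list held 18 of 23 genes at 1 FPKM or more, led by the target *Id1* at 167 FPKM and the inhibitor *Smad7* at 86.0 FPKM. *Bmp4*, the ligand that can stand in for serum beside LIF, was at 79.9 FPKM (76.3 to 83.5) and held 90.9% of the Bmp family, with *Bmp7* next at 2.41 FPKM. The type I receptor *Bmpr1a* was at 17.8 FPKM and *Bmpr1b* at 0.135 FPKM. The antagonists *Nog* and *Grem1* were at 0.113 and 0.0432 FPKM, while the antagonist *Chrd* was present at 3.13 FPKM (2.59 to 3.75). Of the inhibitor of differentiation genes *Id1* held 81.2% of the FPKM, *Id3* was at 23.0 FPKM, *Id2* at 13.3 FPKM and *Id4* at 2.42 FPKM.

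In the Nodal and activin list 17 of 21 genes were present, with *Tdgf1* at 429 FPKM far above *Nodal* at 49.6 FPKM. *Pcsk6*, a convertase that processes Nodal, was at 30.6 FPKM, *Inhbb*, a subunit of activin B, at 24.2 FPKM and the receptor *Acvr1b* at 18.4 FPKM. *Lefty2* and *Lefty1*, feedback inhibitors and targets of Nodal, were at 5.53 and 4.37 FPKM. *Cfc1*, the paralog of *Tdgf1*, was at 0.0744 FPKM, so the co-receptor came from 1 of the pair.

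In the Notch list 15 of 22 genes were present. The 4 receptor genes were close to each other, *Notch4* at 15.9 FPKM (15.1 to 16.7), *Notch3* at 13.8 FPKM (13.1 to 14.5), *Notch1* at 13.3 FPKM (12.7 to 13.9) and *Notch2* at 7.22 FPKM (6.79 to 7.67), and the intervals of *Notch3* and *Notch1* overlap. The ligands *Jag2* and *Jag1* were at 12.1 and 3.75 FPKM and *Dll1*, *Dll3* and *Dll4* were between 0.0672 and 1.01 FPKM. Of the target genes, *Hes1* was at 38.4 FPKM, while *Hes5*, *Hey1*, *Hey2* and *Heyl* were all under 1 FPKM, from 0.137 to 0.452 FPKM.

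The Hedgehog list held 9 of 14 genes at 1 FPKM or more, with the factors *Gli2* and *Gli1* at 22.1 and 21.0 FPKM and the receptor *Ptch1* at 11.9 FPKM. The 3 ligand genes were low, *Dhh* at 0.641, *Ihh* at 0.143 and *Shh* at 0.034 FPKM. *Gli1* and *Ptch1* are themselves known targets of the pathway. *Ptch1*, *Gli1* and *Gli2* were thus present with all 3 ligand genes under 1 FPKM.

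Taken over 13 ligand and receptor families, 57 of 200 genes were present (28.5%, against 52.5% of all genes), 41 genes were listed at 0 and the median was 0.22 FPKM. *Fgf4* alone passed 100 FPKM. After *Bmp4* came *Epha2*, an ephrin receptor of the naive state, at 73.7 FPKM, *Fzd5* at 46.8 FPKM, *Sema4b* at 27.9 FPKM, *Fzd7* at 20.7 FPKM and *Ephb3* at 20.6 FPKM. Of 33 interleukin genes 3 were present, and of 33 chemokine genes 2.

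Many paralog families were carried by 1 gene. Of 81 families with 3 or more members and at least 1 member present, 44 had a member that held over 50% of the family's summed FPKM. The count was 27 of 57 with genes of status OK only, and 19 of 81 where a share of over 75% was asked for. In the POU family *Pou5f1* held 94.4% with *Pou2f1* (Oct1) next at 16.4 FPKM. In the Sox family *Sox2* held 81.9%, with *Sox12* next at 14.9 FPKM. *Sall4* held 67.5% of its family, *Myc* 67.4% with *Mycn* at 11.5 FPKM, and *Tbx3* 65.6%. The Klf family was shared instead: *Klf5* held 41.6%, *Klf4* 18.4%, *Klf2* 10.96% and *Klf9* 9.47%, and 15 of 17 members were present.

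By class, 11 of 26 transcription factor families were led in this way, 4 of 8 ligand families, 4 of 5 receptor families, 3 of 7 chromatin families, 9 of 12 metabolic families and none of 3 cell cycle families. The 9 include enolase, where *Eno3* held 50.2% at 4.54 FPKM and the main gene *Eno1* was not analysed here. The Hdac family was shared between *Hdac1* at 105 and *Hdac2* at 85.2 FPKM, which encode near-identical deacetylases. Cyclins were shared across phases, with *Ccnd3* at 173, *Ccne1* at 108, *Ccnb2* at 92.7 and *Ccna2* at 80.5 FPKM. A low family can also have a leader, as in the Toll-like receptors, where *Tlr2* at 2.17 FPKM was the 1 present member of 12.

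**Figure D3:**
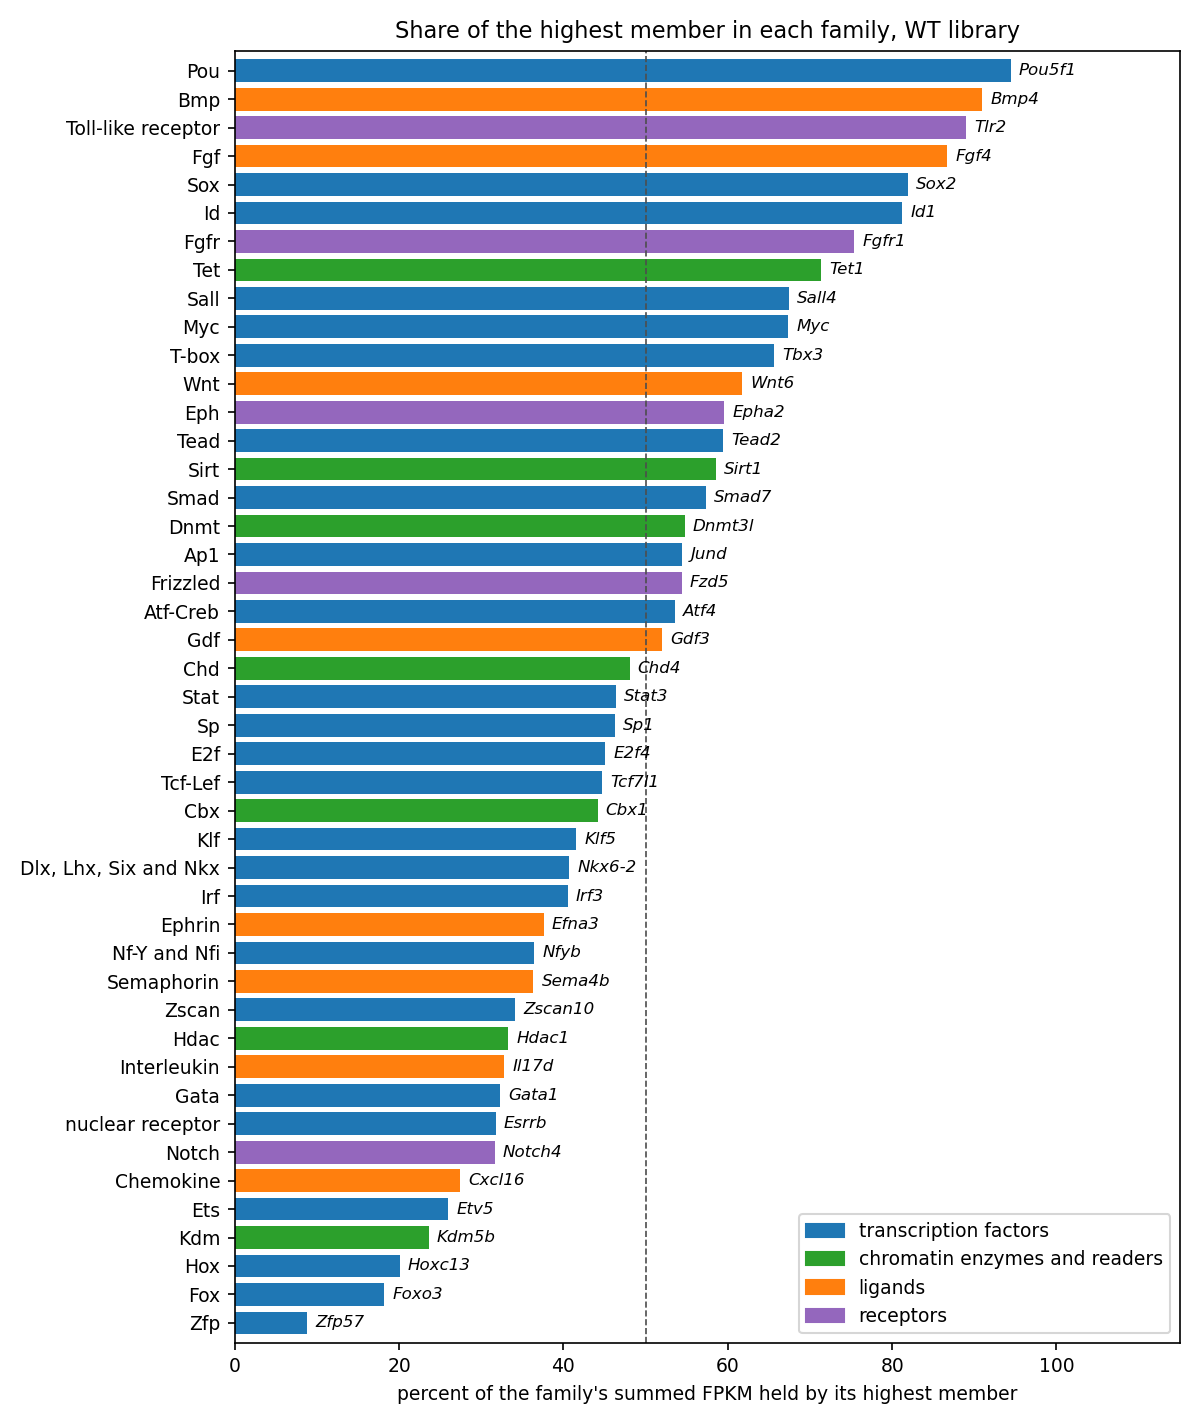
Percent of each family's summed FPKM held by its highest member in the WT library, for families of transcription factors (all but 1 of those counted), chromatin genes, ligands and receptors, with the name of that member at the bar's end and a dashed line at 50%. *Pou5f1* held 94.4% of its family, while *Klf5* held 41.6% and *Zfp57* 8.85%.

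Several developmental families had hardly a member present. Of 39 *Hox* genes, which pattern the body axis, 2 were present, *Hoxc13* at 2.08 FPKM and *Hoxb9* at 1.16 FPKM. Of 9 *Pax* genes none was, and *Pax6* was highest at 0.896 FPKM. *Gata1* and *Gata4* were the highest of 6 *Gata* genes at 1.35 and 1.31 FPKM. Of 34 genes in further homeobox families such as *Dlx*, *Lhx* and *Nkx* 5 were present, with *Nkx6-2* at 14.2 FPKM. Listed at 0 were 5 of the 39 *Hox* genes, 2 of the 9 *Pax* genes and 6 of the 34 further homeobox genes, against 18.8% of all genes.

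A further 13 families had been grouped as silent, so their low level was part of the choice. Over these 13 families 18 of 1730 genes reached 1 FPKM, against 52.5% of all genes. Of 1095 olfactory receptor genes 6 did, and 726 were listed at 0. *Olfr986* was highest at 10.4 FPKM and *Olfr90* next at 2.90 FPKM. Of 319 vomeronasal receptor genes 4 were present, of 38 taste receptor genes none, and all 25 prolactin family genes were listed at 0. None of 9 globin genes, 19 major urinary protein genes, 48 keratin-associated protein genes and 24 *Serpina* genes reached 1 FPKM. In the Cyp2 family *Cyp2s1* was at 9.84 FPKM and was the only present member of 48. The symbol pattern used for defensins also took in *Def6* at 21.9 FPKM and *Def8* at 11.6 FPKM, which are not defensins, so these 2 genes account for part of the 18.

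Most chromatin regulators were present, and 4 of the 7 lists were complete. All 15 genes of DNA methylation, all 11 of PRC2, all 13 of NuRD and all 14 of KAP1 and H3K9 silencing were at 1 FPKM or more, as were 17 of 19 of PRC1, 19 of 22 of the BAF remodeler and 18 of 19 of cohesin, CTCF and mediator. *Dnmt3l*, the catalytically inactive partner of the de novo enzymes, was at 192 FPKM, the maintenance enzyme *Dnmt1* at 132 FPKM and its partner *Uhrf1* at 116 FPKM. The de novo enzymes were lower, *Dnmt3b* at 20.7 FPKM and *Dnmt3a* at 6.34 FPKM. Of the TET dioxygenases, which oxidize 5-methylcytosine, *Tet1* was at 153 FPKM, *Tet2* at 57.9 FPKM and *Tet3* at 3.65 FPKM. *Tdg*, the glycosylase that acts after TET, was at 3.71 FPKM.

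In PRC2, which writes H3K27 methylation, *Jarid2* was at 215 FPKM, *Eed* at 109.9 FPKM, *Suz12* at 80.5 FPKM and the catalytic *Ezh2* at 49.6 FPKM, with its paralog *Ezh1* at 8.76 FPKM. Of the accessory genes *Mtf2* was at 100.2 FPKM and its paralog *Phf19* at 3.45 FPKM. In PRC1, which ubiquitinates H2A, *Phc1* was at 153 FPKM, *Cbx7* at 66.1 FPKM, *Pcgf2* at 53.1 FPKM and *Rnf2* (Ring1b) at 32.0 FPKM. *Bmi1* (Pcgf4) was at 1.86 FPKM, *Ring1* at 3.21 FPKM and *Cbx8* at 0.497 FPKM. Other paralogs lay between these, with *Pcgf6* at 24.4, *Pcgf3* at 22.4, *Cbx6* at 19.2, *Phc2* at 14.4 and *Cbx2* at 11.2 FPKM.

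In the BAF remodeler some paralogs differed widely and others were close. *Smarca4* (Brg1), the ATPase, was at 78.5 FPKM and the alternative ATPase *Smarca2* (Brm) at 0.682 FPKM. *Actl6a* was at 76.5 FPKM and its neuronal paralog *Actl6b* was listed at 0. *Smarcc1* was at 97.0 FPKM and *Smarcc2* at 11.3 FPKM, and *Arid1a* at 73.9 FPKM and *Arid1b* at 4.34 FPKM. *Smarcd1* at 34.1 FPKM (32.3 to 35.9) and *Smarcd2* at 33.1 FPKM (31.2 to 35.1) overlapped, and *Dpf2* was at 18.2 FPKM beside *Dpf1* at 9.76 FPKM. In the silencing list *Trim28* (KAP1), the corepressor of zinc finger proteins, was at 468 FPKM, and the H3K9 methyltransferase *Setdb1* was at 39.1 FPKM. In NuRD the ATPase *Chd4* was at 144 FPKM and its paralog *Chd3* at 5.18 FPKM. The architectural genes *Rad21*, *Smc3* and *Ctcf* were at 133.5, 101 and 52.5 FPKM, and *Stag3*, a cohesin subunit known from meiosis, at 48.2 FPKM was above *Stag1* at 25.4 and *Stag2* at 19.97 FPKM.

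Metabolic lists were present nearly in full. All 17 measured glycolysis genes were at 10 FPKM or more and 9 at 100 FPKM or more. *Pkm*, pyruvate kinase, was at 1010.0 FPKM, *Aldoa* at 729 FPKM, *Gapdh* at 549 FPKM and *Ldha* at 486 FPKM. The glucose transporters were shared evenly, *Slc2a1* at 270.1 FPKM and *Slc2a3* at 265 FPKM, while the other 10 members held little. *Hk2* at 141 FPKM exceeded *Hk1* at 36.1 FPKM. *Pgk1* and *Pgam1*, which have processed copies in the genome among which fragments can be split, were at 54.7 and 21.5 FPKM.

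All 20 genes of the TCA cycle list were present, from *Mdh2* at 224 FPKM down to *Suclg2* at 6.53 FPKM. In one-carbon metabolism, which in ESCs is fed by threonine, *Tdh* was at 182 FPKM, *Shmt2* at 127 FPKM, *Mthfd1* at 119 FPKM and *Gldc*, the glycine decarboxylase, at 93.6 FPKM. *Mat1a*, the liver methionine adenosyltransferase, was at 0.0766 FPKM against 71.5 FPKM for *Mat2a*. Tissue-restricted partners were low in other pairs too: *Pklr* at 0.408 FPKM beside *Pkm*, and *Pdha2* at 0.178 FPKM beside *Pdha1* at 77.7 FPKM. *Cox6b2*, a testis form, was an exception at 82.9 FPKM beside *Cox6b1* at 317 FPKM.

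Of 34 cell cycle genes 30 were present. *Cdk4* was at 252 FPKM, *Top2a* at 224 FPKM, *Ccnd3* at 173 FPKM and *Ccne1* at 108 FPKM, with *Ccnd1* at 20.2 FPKM and *Ccnd2* at 0.857 FPKM. The inhibitors *Cdkn1b*, *Cdkn1a* and *Cdkn2a* were at 22.4, 18.5 and 12.4 FPKM, and *Cdkn2c* and *Cdkn2d* at 0.534 and 0.788 FPKM. In the p53 list *Trp53* was at 114 FPKM, while its relatives *Trp73* and *Trp63* were at 1.24 and 0.0141 FPKM. *Mcl1* at 219 FPKM was the highest antiapoptotic gene and *Bcl2* was at 0.111 FPKM. All 27 DNA repair genes were present, led by *Parp1* at 267 FPKM and the mismatch repair gene *Msh6* at 240.3 FPKM.

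Of the genes the study followed, *Llgl2* was at 84.8 FPKM and its paralog *Llgl1* at 22.9 FPKM. Both encode homologs of the fly polarity protein lethal giant larvae. *Grb7*, an SH2 adaptor, was at 20.1 FPKM, *Grb10* at 2.08 FPKM and *Grb14* at 0.887 FPKM. *Llgl2* (77.7 to 92.3) and *Cdc42* at 81.1 FPKM (77.3 to 85.0) were the highest of 23 polarity genes, with overlapping intervals. *Prkci*, the atypical protein kinase C, was at 53.5 FPKM, and 20 of the 23 were present. *Crb1* was listed at 0. Each of the 2 genes was the highest of its paralogs.

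**Figure D4:**
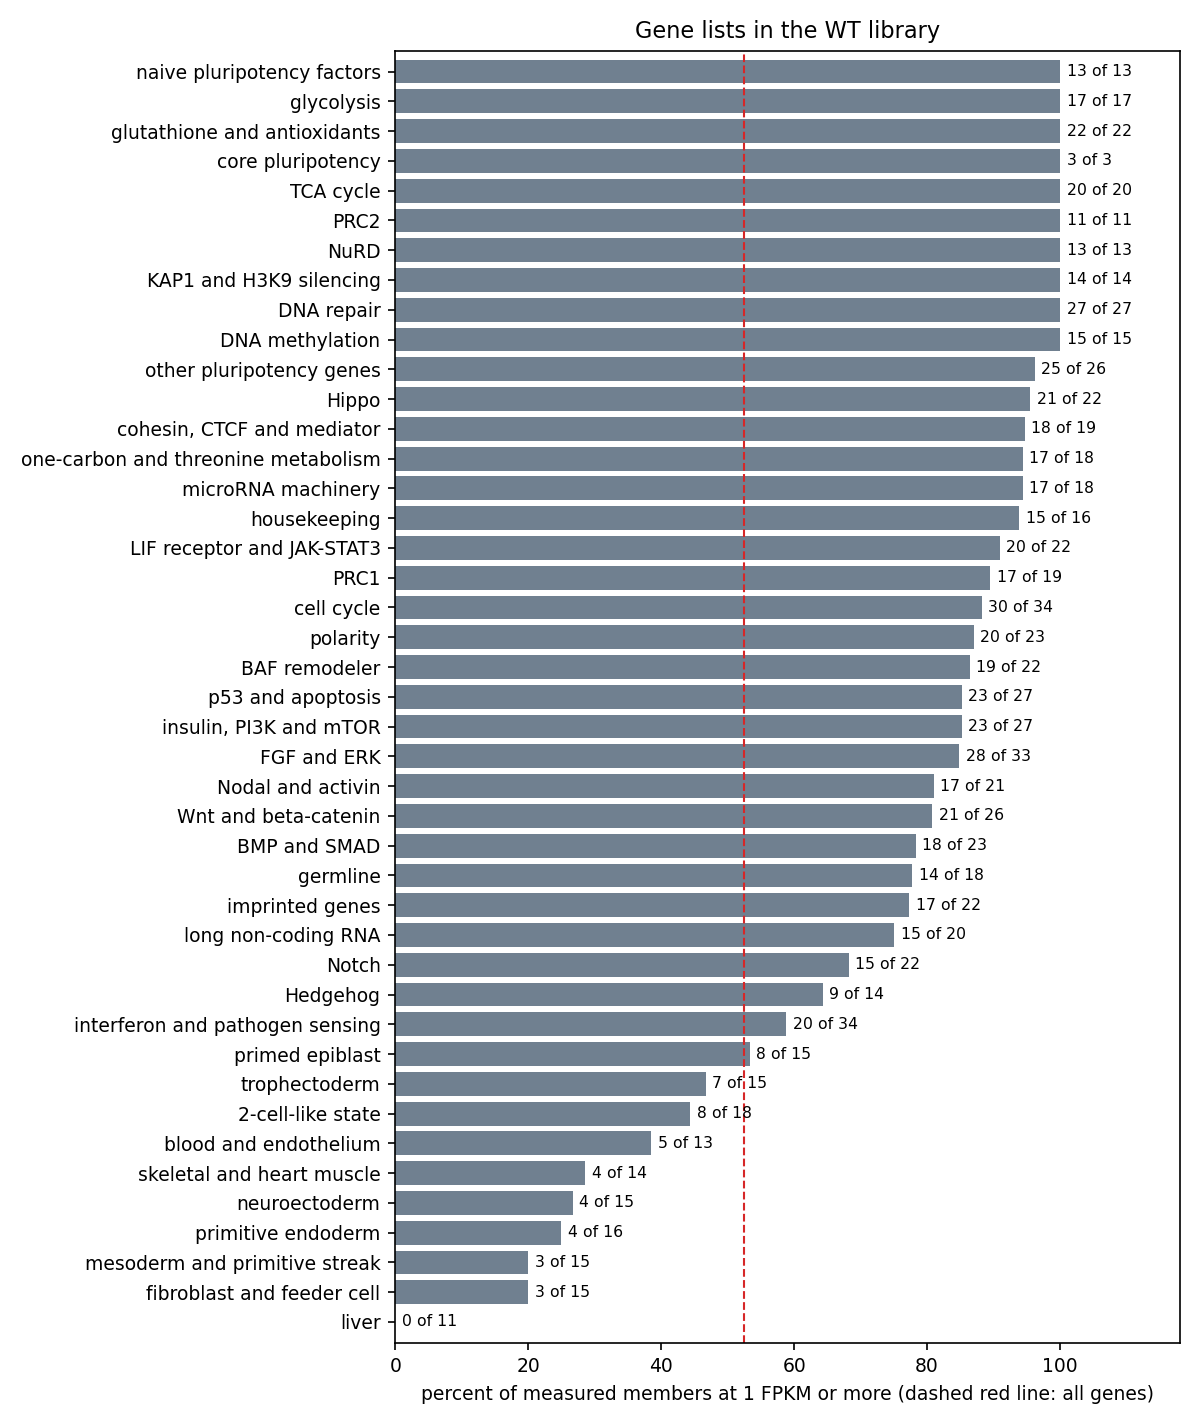
Percent of the measured members of each gene list at 1 FPKM or more in the WT library, with the count beside each bar and a dashed line at the 52.5% of all genes. Pluripotency, chromatin and metabolic lists lie at or near 100%, and lists of other cell types such as liver (0 of 11) and fibroblast (3 of 15) lie under the line, with germline (14 of 18) above it and primed epiblast (8 of 15) close to it.

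Markers of other cell types were mostly low. Over 9 lists, of trophectoderm, primitive endoderm, mesoderm, neuroectoderm, fibroblast, blood and endothelium, liver, muscle and germline, 44 of 129 markers were present (34.1% against the background of 52.5%), 12 were at 10 FPKM or more and 22 were listed at 0, with a median of 0.373 FPKM. With the primed epiblast and 2-cell-like lists, which are states near that of ESCs, the count was 60 of 162 (37%). The fibroblast and feeder cell list had 3 of 15 present, *Thy1* at 4.52, *Tagln* at 1.48 and *Pdgfrb* at 1.45 FPKM, with a summed level of 8.39 FPKM. *Col3a1*, *Dcn*, *Fap*, *Lum* and *S100a4* were listed at 0 and *Col1a2* was at 0.0258 FPKM. The matrix genes by which feeder fibroblasts are known were therefore under 1 FPKM in this library. None of 11 liver markers was present, and *Alb* was listed at 0.

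Of the primitive endoderm markers 4 of 16 were present. *Sparc* was at 96.8 FPKM, *Lama1* at 33.7 FPKM and *Col4a1* at 11.9 FPKM, all matrix genes, while the defining factors *Gata6*, *Sox17* and *Foxa2* were at 0.834, 0.151 and 0.0993 FPKM. *Gata4* was at 1.31 FPKM. Of the trophectoderm markers 7 of 15 were present, 46.7% against 52.5% of all genes. *Krt18* was at 10.8 FPKM, *Cdx1* at 6.97 FPKM, *Tfap2c* at 6.55 FPKM, *Krt8* at 5.11 FPKM and *Eomes* at 2.91 FPKM, while *Cdx2* was at 0.639 FPKM. In the mesoderm list 3 of 15 were present and *T* (Brachyury) was at 0.309 FPKM. In the neuroectoderm list 4 of 15 were present, *Tubb3* at 24.8 FPKM the highest, and *Sox1* was at 0.677 FPKM. Of 13 blood and endothelium markers 5 were present, with *Cd3e* at 6.07 FPKM, and of 14 muscle markers 4, with *Des* at 8.65 FPKM. In bulk RNA a few cells of a type and a low level in all cells cannot be told apart.

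The germline list was the 1 of these 9 lists above the background, with 14 of 18 genes present and 7 at 10 FPKM or more. *Stra8*, the gene induced by retinoic acid before meiosis, was at 59.5 FPKM, *Tex19.1* at 37.6 FPKM and *Sycp3*, of the synaptonemal complex, at 26.9 FPKM. *Mael* was at 17.8 FPKM, *Ddx4* (Vasa) at 12.3 FPKM and *Dazl* at 7.70 FPKM. *Nanos2* and *Gdf9*, of later male and female germ cells, were at 0.171 and 0.0822 FPKM.

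A few genes bear on the line itself. *Hprt*, a salvage enzyme gene often used as a reference, was at 0.415 FPKM, about 6.49 fragments, and was the only 1 of 16 housekeeping genes under 1 FPKM. It was at 0.127 FPKM in Tam and 0.338 FPKM in DoxTam. The widely used E14 subline E14Tg2a is known to carry a deletion in this gene. Of 39 genes on the Y chromosome 38 were listed at 0 in WT, although E14 is a male line. *Eif2s3y*, a translation factor gene, was at 0.107 FPKM and was the 1 gene above 0, and none was above 0 in Tam or DoxTam. The X-linked partners *Ddx3x*, *Kdm5c*, *Kdm6a* and *Eif2s3x* were at 107, 30.99, 14.4 and 12.96 FPKM. Whether the cells had lost the Y chromosome was not tested.

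On the X chromosome 392 of 954 genes were present (41.1%), against 11571 of 21712 autosomal genes (53.3%). The median over the present genes was 7.58 FPKM for the X and 10.9 FPKM for the autosomes, a ratio of 0.698. *Xist*, the RNA that silences an X chromosome, was at 6.86 FPKM and its antisense partner *Tsix* at 7.99 FPKM. The transcripts overlap, and whether counting used the strand was not given in the sources used here.

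Of the imprinted genes 17 of 22 were present. *Peg10* was at 320 FPKM, *Gnas* at 103 FPKM, *Mest* at 49.2 FPKM and *Snrpn* at 47.3 FPKM. *H19*, *Meg3* and *Rian*, maternally expressed non-coding RNAs, were at 0.351, 0.489 and 0.338 FPKM and *Dlk1* at 0.153 FPKM. *Igf2*, which shares control elements with *H19*, was at 1.94 FPKM. These levels hold for the sum over both alleles.

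Gene level went with promoter composition. The 16690 genes with a RefSeq promoter were ordered by FPKM and divided into 10 groups of 1669. They took in 60 of 81 cytoplasmic ribosomal protein genes and 0 of 67 replication-dependent histone genes. Their highest level was 3612 FPKM, that of *Rplp2*, so the structural RNAs above it were not among them. The median ratio of observed over expected CpG was 0.162 in the lowest group and 0.850 in the highest, with 0.588 over all, and it was higher in each group than in the one under it. The median number of CpG in 300 bases was 2 in the lowest group and 24 in the highest, and the median GC content 44% and 61.7%. The steepest part of the change lay between the groups ending at 0.455 FPKM and at 4.47 FPKM, where the median ratio went from 0.352 to 0.691. The lowest group and most of the next hold genes listed at 0, which were ordered at random.

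Motifs moved with the same order. TATAAA, the TATA box, occurred in 28.9% of the lowest group and 7.25% of the highest (12.9% over all), and GGGCGG, the GC box bound by Sp factors, in 8.99% and 70.5% (47.3% over all). CCAAT, bound by NF-Y, stayed between 34.5% and 43.1% in every group (38.8% over all). CACGTG, the E-box of Myc and USF factors, occurred in 4.01% and 12.3% (8.20% over all), and AAGATGGCG, bound by YY1, in 0.24% and 4.91% (1.995% over all). The whole octamer ATTTGCAT went the other way, in 2.64% of the lowest and 1.02% of the highest group (1.65% over all). All motifs were searched on both strands, and the part of GC content in these shares was not tested. The median transcript length was 1057 bases in the lowest group, 3298 in the seventh and 2676 in the highest.

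**Figure D5:**
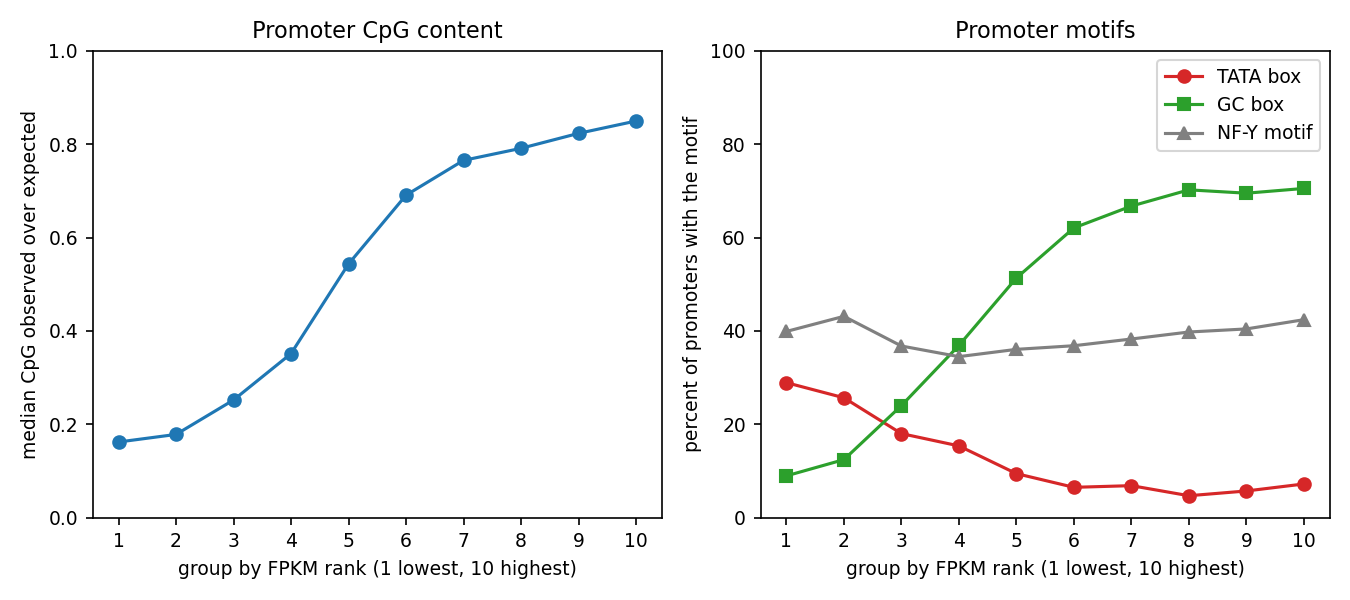
Promoter features of 16690 genes in 10 groups by FPKM rank in the WT library, from the lowest (1) to the highest (10): left, the median ratio of observed over expected CpG, and right, the percent of promoters with the TATA box, the GC box or the NF-Y motif. The CpG ratio goes from 0.162 to 0.850 and the GC box from 8.99% to 70.5%, the TATA box falls from 28.9% to 7.25% and the NF-Y motif stays between 34.5% and 43.1%.

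Promoters of 4 genes are shown beside this order. *Rplp2* was the highest protein-coding gene, and *Eef1a1* and *Eef1a2* are paralogs at 3056 and 0.0693 FPKM. *Olfr986*, the highest olfactory receptor gene, was at 10.4 FPKM and so within the range of group 8 of the 10 groups, where the median CpG ratio was 0.791. The sequences are the 250 bases before the RefSeq start on GRCm38.p6, written in the direction of the gene, and capitals mark each CpG. They lie at chr7:141447401-141447650 (plus strand), chr9:78481725-78481974 (minus), chr2:181157016-181157265 (minus) and chr9:40186829-40187078 (plus).
Rplp2: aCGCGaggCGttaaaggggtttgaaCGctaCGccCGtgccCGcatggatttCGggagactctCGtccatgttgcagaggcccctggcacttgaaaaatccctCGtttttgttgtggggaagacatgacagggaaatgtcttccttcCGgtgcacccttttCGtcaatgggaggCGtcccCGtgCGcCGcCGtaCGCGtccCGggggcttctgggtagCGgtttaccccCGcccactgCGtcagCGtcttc
Eef1a1: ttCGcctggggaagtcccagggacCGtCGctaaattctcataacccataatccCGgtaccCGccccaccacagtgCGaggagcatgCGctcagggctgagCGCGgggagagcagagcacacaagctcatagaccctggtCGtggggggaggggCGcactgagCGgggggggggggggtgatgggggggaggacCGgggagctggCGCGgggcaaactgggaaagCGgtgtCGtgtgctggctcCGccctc
Eef1a2: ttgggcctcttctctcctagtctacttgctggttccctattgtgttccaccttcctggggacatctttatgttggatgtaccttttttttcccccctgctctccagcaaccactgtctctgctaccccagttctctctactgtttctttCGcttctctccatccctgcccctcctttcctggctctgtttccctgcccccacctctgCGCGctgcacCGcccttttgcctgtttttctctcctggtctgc
Olfr986: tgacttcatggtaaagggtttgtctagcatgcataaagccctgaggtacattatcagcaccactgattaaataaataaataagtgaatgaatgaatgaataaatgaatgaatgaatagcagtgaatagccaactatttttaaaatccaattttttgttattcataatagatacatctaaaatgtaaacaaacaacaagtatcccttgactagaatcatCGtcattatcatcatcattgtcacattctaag

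In these windows *Rplp2* held 24 CpG, *Eef1a1* 18, *Eef1a2* 4 and *Olfr986* 1, with CpG ratios of 1.05, 0.652, 0.267 and 0.178. The group medians were taken over 300 bases, 50 of them after the start, and the printed windows hold 250, so setting them side by side is approximate. The ratio of *Olfr986* lay near the median of the lowest group and not of its own. That of *Eef1a1* was above that of *Eef1a2* but under the median of 0.850 in the highest group, to which *Eef1a1* belongs. Over 60 cytoplasmic ribosomal protein genes with a promoter the median CpG ratio was 0.855. In the 15 bases around their start a median of 60% were pyrimidines, against 46.7% over all promoters. The median was 53.3% in the highest of the 10 groups and also in vomeronasal receptor promoters. Ribosomal protein transcripts are known to be translated under mTOR control through a pyrimidine tract at their start. An unbroken tract was not looked for, since pyrimidines were counted anywhere in the 15 bases. Over 923 olfactory receptor promoters the median CpG ratio was 0.107 and 41.2% held TATAAA. Since 1 annotated start was used per gene, the start that the cells used may differ.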

How the data were processed

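RNA-seq of E14 cells was deposited by the authors as FPKM values per gene, 1 column per condition, in a table for Tam against WT and a table for DoxTam against WT. Per the submitters' processing notes the tools were TopHat, Bowtie and Cufflinks 2.0.0 with the mm9 build; the other versions and the annotation are not given in the sources used here. The library kit and RNA extraction are in the labels. The deposited p-value, q-value and log2 fold columns hold the authors' comparisons and were not used. No other column of sample values was left out (0 columns).

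The WT column of the Tam table was used; the WT columns of both tables differed in 53 rows, chiefly by rounding. Genes were ranked by FPKM after setting aside symbols starting Mir or Snor. Present meant 1 FPKM or more, and a family of 3 or more members was led where its highest member held over 50% of its FPKM. Genes were named by rule: the 3 core genes, the 25 highest genes, each short list in full or its highest and lowest members, the highest members of each family, and the 20 highest transcription factors and ligands or receptors. Some genes that this rule names are not reported here. The members, lists and families were chosen with earlier results of these data known, 45 lists and 118 families in all.

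Fragments were estimated from steps in the FPKM of short olfactory receptor genes (GENCODE vM1, NCBIM37, the mm9 assembly) and from the median length of each gene's coding transcripts. Such numbers are approximate where isoforms or gene copies differ, and intervals cover counting error only. Promoters were taken from RefSeq (GRCm38.p6), 250 bases before to 50 after the start, matched by symbol to 16690 of 22769 genes; for the 2604 genes with more than 1 promoter the one listed first was used. No mitochondrial genome genes are in the table (0 genes). Scripts ran in Python 3.11.15 with pandas 2.3.3, numpy 2.4.6, scipy 1.17.1 and matplotlib 3.10.9, and the step fit, ranks and promoter measures were tested on simulated data. Alternatives were another level for present, other gene filters, another group number and the other libraries.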

Additional observations from a re-analysis of the deposited data

How the results depend on the processing

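Of 69 alternative values computed, 53 were unchanged by the rule used and 16 moved. By this rule a count stayed within 1.5 times, and a rank or a median CpG ratio was equal. A share had to lie within a binomial interval on the estimated fragment total. Several of the 53 could not move, since the level called present enters neither the share nor the rank. Leaving out genes at 0 likewise cannot alter a count of genes present. The 53 are therefore not a measure of how stable the results are. The share of summed FPKM in the 100 highest genes, 38.2%, was 69.8% with small RNA genes kept in, 28.3% with further structural RNA genes left out, 38.6% with genes of a status other than OK left out, 38.9% without unnamed gene models, 45.4% in the library labelled Tam and 42.1% in DoxTam. The rank of *Pou5f1* among the 770 genes of the transcription factor families and pluripotency lists, 2, was 3 in DoxTam. Families led by 1 member, 44 of 81, were 27 of 57 with status OK genes only and 19 where a share of 75% was asked for. Genes present in the 13 families grouped as silent, 18 of 1730, were 40 at 0.5 FPKM and 4 at 5 FPKM. They were 9 of 13 with status OK genes only and 51 in Tam. Markers of other cell types present, 60 of 162, were 26 at 5 FPKM and 38 of 39 with status OK genes only. Leaving out the primed epiblast and 2-cell-like lists, chosen after seeing the data as was the count of transcription factors without the Zfp family, gave 44 of 129. The median CpG ratio of the highest group was 0.837 with 5 groups in place of 10. The status filter leaves 10320 genes, nearly all of them present, so counts under it share that choice. For the rest the cause was not tested. No paired analysis was possible because each condition has 1 deposited column and no result comes from a test. Depth limits statements on genes under about 0.116 FPKM.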

Other observations

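Genes of innate immunity were present in part. Of 34 genes of interferon and pathogen sensing 20 were at 1 FPKM or more (58.8% against 52.5% of all genes) and 6 at 10 FPKM or more. *Ifitm2* and *Ifitm1*, membrane proteins that restrict viral entry, were at 138 and 32.3 FPKM, and *Irf3* was at 14.9 FPKM. The ligand genes *Ifnb1* and *Ifna2* were listed at 0, as was *Isg15*, and *Ifit1*, *Irf7* and *Mx1* were at 0.517, 0.525 and 0.060 FPKM. The class I genes *B2m*, *H2-K1* and *H2-D1* were at 20.3, 9.90 and 8.02 FPKM.

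Adhesion and cytoskeleton families differed in how far 1 member led. *Cdh1* (E-cadherin) was at 82.5 FPKM, 83.5% of 23 cadherins, with *Cdh3* next at 8.49 FPKM. *Actb* held 94.97% of the actins at 1225 FPKM, *Lmnb1* 75.6% of the lamins and *Col18a1* 60.5% of 44 collagens at 105 FPKM. *Gja1* held 37.6% of 20 connexins and *Krt42* 27.6% of 48 keratins. The laminin receptor gene *Itga6* was at 67.3 FPKM and *Itgb1* at 53.9 FPKM, and the laminin genes *Lamc1* and *Lama5* were at 90.5 and 53.5 FPKM. Among channel and neurotransmitter receptor families the kainate receptor gene *Grik3* was at 15.1 FPKM, the highest of 18 glutamate receptor genes.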
